A study of Mus musculus with 24 samples.

Results

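The cytoplasmic ribosomal protein genes of the mouse were described here in the hippocampus of Aged mice. They were taken as the gene symbols that start with Rpl (large subunit) or Rps (small subunit) and go on with a number and at most 1 letter, without pseudogene symbols and without the Rps6k kinases. This gave 78 of the 49568 gene symbols in the count files, 47 of the large and 31 of the small subunit, and 76 of them had enough counts to be tested among 20187 genes. The 2 that did not were Rpl10l and Rpl39l.

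A cytoplasmic ribosome joins a small subunit, which reads the mRNA, to a large subunit, which forms the peptide bond, and each subunit holds ribosomal RNA and a set of proteins that are needed in equal number. Most of the proteins are encoded by a single active gene, and many processed pseudogenes resemble each of these genes. The mRNAs are short, abundant and stable, and begin with a run of pyrimidines (the 5' TOP motif) through which the mTOR pathway controls their translation, so that protein output can change with little change in mRNA. In neurons, part of these mRNAs lies in dendrites and axons, close to synapses.

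The study examined whether MSK1 (mitogen- and stress-activated protein kinase 1, gene Rps6ka5) is needed for the effects of environmental enrichment. All 24 mice were male and on a C57BL/6J background. WT standard-housed mice (WTSH) and MSK1 KD standard-housed mice (KDSH) stayed in standard cages, while WT enriched (WTEE) and MSK1 KD enriched (KDEE) mice were moved to enriched housing at 18 months of age, and hippocampal RNA was taken at 21 to 23 months in all 4 groups. MSK1 KD mice carry, in every cell, a knock-in point mutation that removes kinase activity, so the kinase is lost for life and not only during enrichment. Each library came from 1 mouse. The study left out WTSH samples 4 and 7, for reads from ribosomal RNA and a weak correlation with their group, and KDSH sample 6, which left 4 WTSH, 6 WTEE, 5 KDSH and 6 KDEE libraries. These 21 libraries were used in all tests, and the left-out samples are described beside them.

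The bases around the start site of several genes are shown because the pyrimidine run at the start of the transcript is the feature by which this gene family is usually recognised. Of the 78 genes, 57 had a promoter in RefSeq (GRCm38.p6). In 29 of these (50.9%) a run of at least 8 letters C or T began within 20 bases of a start site. Among all gene symbols with a promoter it was so in 5293 of 27025 (19.6%). A symbol was counted, here and for the motifs below, if any of its promoters qualified. The 30 bases from 12 before to 17 after the start site are printed 5' to 3', with the pyrimidine run in capitals. For a gene with several promoters, a promoter with a run was chosen for display where there was any.
Rps6, chr4:86857350-86857379, minus strand: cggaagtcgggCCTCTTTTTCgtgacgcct
Rps18, chr17:33955648-33955677, minus strand: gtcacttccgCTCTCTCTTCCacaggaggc
Rps27, chr3:90213631-90213660, minus strand: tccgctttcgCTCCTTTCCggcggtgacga
Rps27l, chr9:66946074-66946103, plus strand: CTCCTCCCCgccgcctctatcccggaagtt
Rpl38, chr11:114668568-114668597, plus strand: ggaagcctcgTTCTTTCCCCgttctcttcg
Rpl35, chr2:39005114-39005143, minus strand: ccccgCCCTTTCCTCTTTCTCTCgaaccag
Rpl27a, chr7:109519183-109519212, plus strand: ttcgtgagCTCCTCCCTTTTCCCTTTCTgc
Rpl41, chr10:128549151-128549180, minus strand: acgggccggctcggaagtgacgacaccgag
Rps19, chr7:24884580-24884609, plus strand: gaaatctcgcgagactcgacgcccgacttg
In Rps27l the run ended before the start site and so lies outside the annotated transcript. The longest of these runs was in Rpl27a, whereas the windows of Rpl41 and Rps19 held none of 8 letters, which says only that these letters are not in this window. Other motifs were searched on both strands of the 300 bases from 250 before to 50 after the start site. CCGGAAG, a core sequence bound by ETS-family factors, lay in 23 of the 57 promoters (40.4%) and in 9.93% of all symbols. TATAAA lay in 5 (8.77% compared with 15.7%) and CACGTG, an E-box, in 6 (10.5% compared with 8.09%). No overlap between motifs was removed.

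Per length of transcript, the small-subunit genes Rps15, Rps29 and Rps21 stood highest. Levels are given as CPM, the counts of a gene relative to its library's total, scaled between libraries by TMM. Between genes they are given as CPM per kilobase of the principal transcript. This is the one that APPRIS ranks first, or the longest where several rank equally. Rps15 was at 561 ± 128 CPM per kilobase (SD, n = 21) and Rps29 at 535 ± 144, a gap smaller than either SD. These SDs hold shifts that the genes of a library share, so they do not decide the order. Rps21 followed at 401 ± 107, with Rpl3, which lies near the peptidyl transferase centre, at 392 ± 49.0 and Rpl13 at 382 ± 78.7. The gaps between these were also smaller than their SDs, and the order was not tested. With all exons of a gene merged as its length, Rps15 and Rps29 were again ranked 1 and 2, while Rps21 was ranked 6. Over the 76 genes the median was 175 CPM per kilobase, and 67 of them had a mean level over 50 CPM.

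Several of the low genes share their exons with other genes, and reads that fit 2 genes were not counted. The overlaps are those of GENCODE M21, which may differ from the annotation that the authors counted with. The symbol Rpl24 was at 0.519 ± 0.161 CPM per kilobase, with 71.5% of its transcript inside exons of Gm28037. Rpl13a was at 10.2 ± 1.65 CPM per kilobase with 59.3% shared. More than 50% was shared in 7 genes (Rpl13a, Rpl23a, Rpl24, Rpl30, Rpl35, Rps10 and Rps25), and in 61 of the 78 none was. Not all of the 7 were low, since Rpl30 was at 161, Rps10 at 158 and Rps25 at 111 CPM per kilobase. The counting did not use strand, so genes that overlap on opposite strands could not be told apart. Counts of genes with near-identical pseudogenes are uncertain too, since reads with more than 1 alignment were dropped.

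The paralogues that are known from muscle and testis were close to absent. Rpl3l, the heart and skeletal muscle paralogue of Rpl3, had 9 to 30 counts per library and reached 0.0612% of Rpl3 per kilobase. Rpl39l, known from the male germ line, had 0 to 13 counts and reached 0.0764% of Rpl39. Rpl10l, which takes the place of the X-linked Rpl10 in male germ cells, had 0 counts in 20 of the 21 libraries and 2 in WTEE sample 16. A count of 0 allows up to 3 counts, or 0.0417 to 0.109 CPM in these libraries.

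By contrast, a pair of other paralogues was expressed in every library. Rps27l, a paralogue of Rps27 that is known as a target of p53, reached 5.69% of Rps27 per kilobase (4.97 to 7.43% over the 21 libraries). Rps4l, annotated as a transcribed processed pseudogene on chromosome 6, reached 9.76% of the X-linked Rps4x (6.42 to 13.6%). The first 30 coding bases of Rps27 (chromosome 3) and Rps27l (chromosome 9) from the GENCODE M21 transcripts are shown because they bear on whether the counts of the pair can be told apart, with differing bases in capitals.
Rps27: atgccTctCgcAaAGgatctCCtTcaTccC
Rps27l: atgccCctGgcTaGAgatctGTtAcaCccT
Both open reading frames were 255 bases long with 194 bases the same (76.1%), and the longest shared stretch was 11 bases. Rpl10 and Rpl10l shared 547 of 645 bases (84.8%), with no shared stretch over 23 bases.

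Before any comparison, WTEE sample 10 stood apart. Its ribosomal protein counts were 2.13% of all gene counts (95% Wilson interval 2.13 to 2.14%, counting error only), while the other 20 libraries lay between 1.03 and 1.38%. For each gene, the log2 CPM in a library was set against its mean over the 21 libraries, and the mean of this difference over the 76 genes was taken as the level of the family in that library. WTEE sample 10 was at 0.85, and the other libraries lay between -0.25 (KDSH sample 24) and 0.20 (KDEE sample 15). In WTEE sample 10, 74 of the 76 genes had their highest level of all 21 libraries, and 16 were at least 1 log2 unit above their mean. It held 50610447 counts on genes, and the 21 libraries ranged from 27410239 to 71907130. The paper describes more variation in sample 10 than in others of its group, with a correlation still above its exclusion limit.

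**Figure D1:**
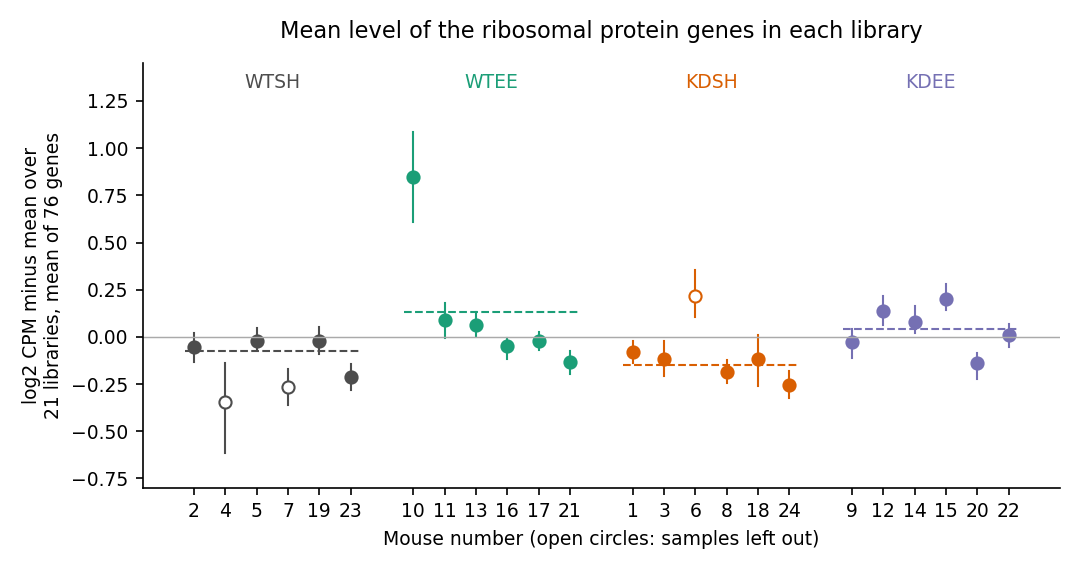
Mean level of 76 ribosomal protein genes in each of 24 libraries (vertical axis, log2 CPM minus the mean over 21 libraries; horizontal axis, mouse number by group; open circles are the samples left out). WTEE sample 10 is at 0.85, while the other kept libraries sit between -0.25 and 0.20.

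The ranges of the 4 groups overlapped. The mean level was -0.08 ± 0.09 in WTSH (SD, n = 4), 0.13 ± 0.36 in WTEE (n = 6), -0.15 ± 0.07 in KDSH (n = 5) and 0.04 ± 0.12 in KDEE (n = 6), and without sample 10 the WTEE mean was -0.01 ± 0.09 (n = 5). The 9 standard-housed libraries lay between -0.25 and -0.02, and 7 of the 12 enriched libraries, or 6 of 11 without WTEE sample 10, were above all of them. The order of the 4 group means was the same under the other scalings (RLE, upper quartile and library size alone). In bulk tissue, fewer cells of a type and less RNA per cell cannot be told apart.

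Within a library the genes were close to each other, with an SD over the 76 levels of 0.06 to 0.15 in 20 libraries and 0.21 in WTEE sample 10. Across libraries, the SD of a gene was small as well. Without WTEE sample 10, the SD of log2 CPM over the other 20 libraries had a median of 0.13 over the 76 genes and was under 0.2 for 71 of them. The largest SDs over the 21 libraries were those of Rpl6l (0.42), annotated as a processed pseudogene, of Rpl24 (0.41) and of Rpl3l (0.41). Their counts per library were low, with 9 to 120 for Rpl6l, 7 to 40 for Rpl24 and 4 to 30 for Rpl3l over all 24 libraries.

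**Figure D2:**
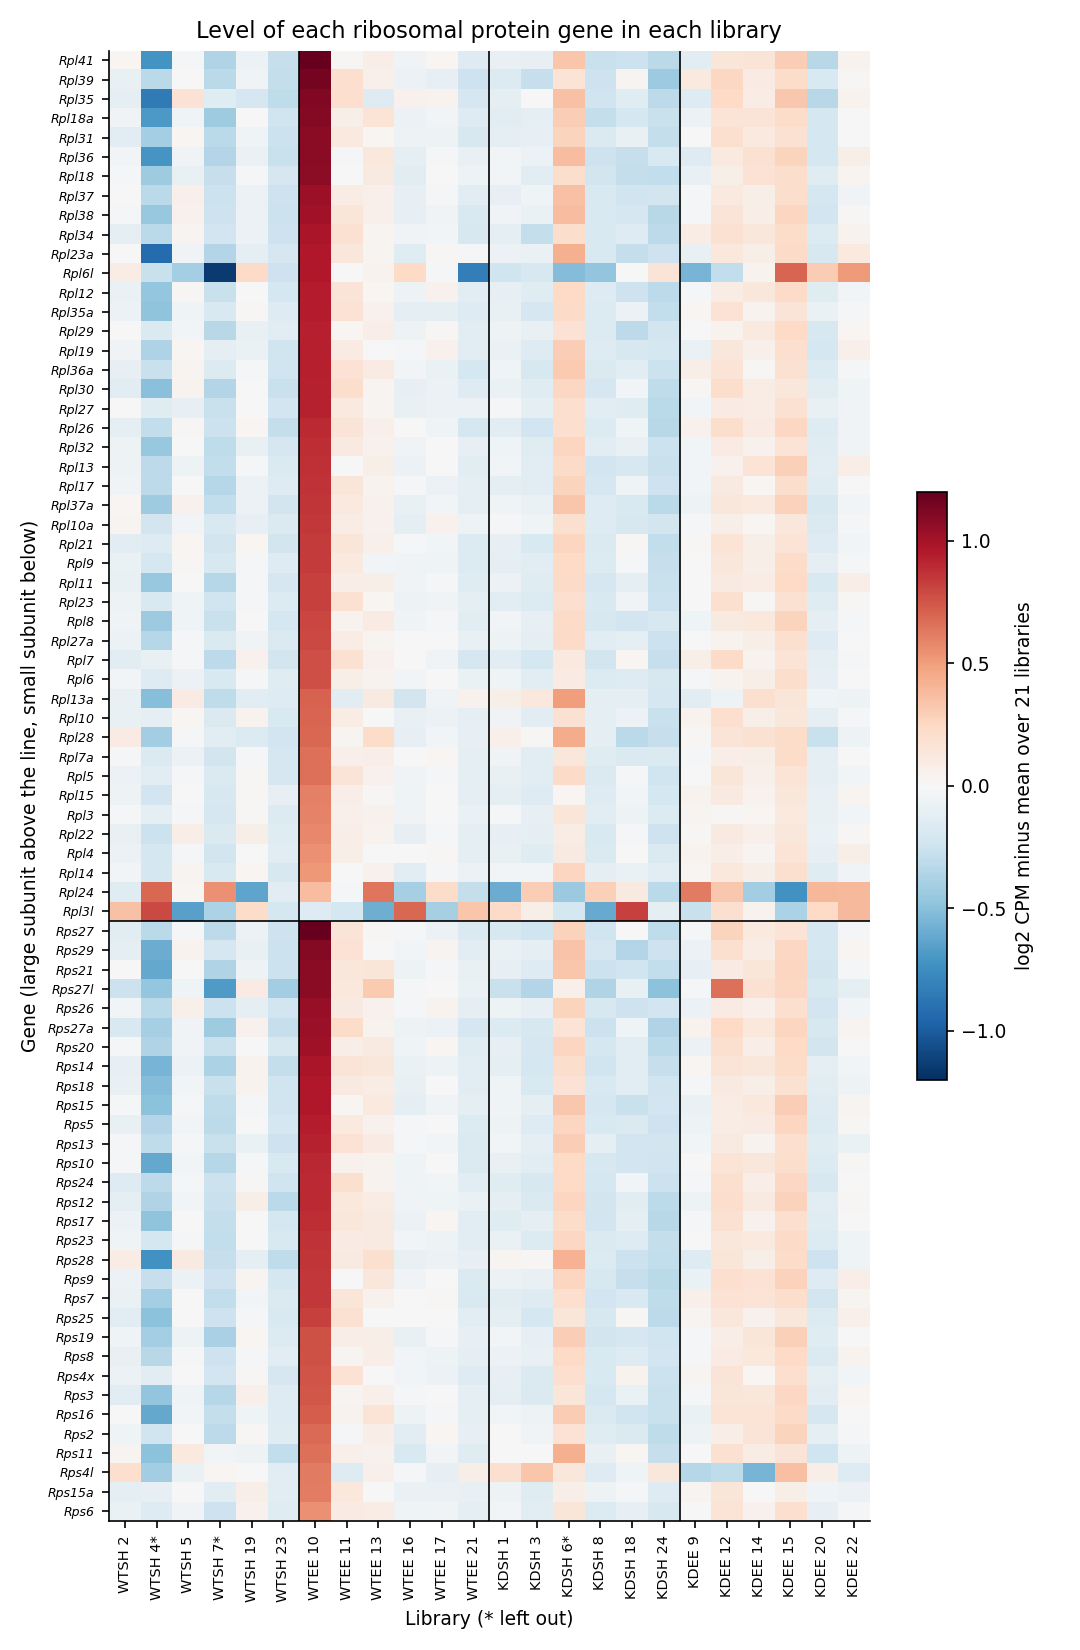
Level of each of the 76 genes (rows, large subunit above the line and small subunit below) in each of 24 libraries (columns, an asterisk marks those left out); colour gives log2 CPM minus the mean over 21 libraries. The column of WTEE sample 10 is high for nearly every gene, with Rpl3l at -0.16 and Rpl24 at 0.37 as the lowest there.

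The left-out samples did not share 1 direction. In WTSH sample 4 the mean level was -0.35, in WTSH sample 7 it was -0.27 and in KDSH sample 6 it was 0.22. In WTSH sample 4, 64 of the 76 genes were below all 4 kept WTSH libraries and 2 were above, and of all genes tested 29.8% were below and 26.3% above. In WTSH sample 7, 56 were below and 1 was above (28.7% and 25.5% of all genes). Conversely, in KDSH sample 6, 72 were above all 5 kept KDSH libraries and 1 was below, compared with 26.6% and 25.5% of all genes. The same count for WTEE sample 10 against the other 5 WTEE libraries was 74 above and 0 below, compared with 34.8% and 37.4% of all genes.

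With library size alone as the scale, WTSH samples 4 and 7 were at -0.75 and -0.71, so the size of the difference depended on the scaling while its direction did not. The samples also differed in library quality. Read pairs in no gene made up 32.2% in WTSH sample 4, 33.0% in WTSH sample 7 and 16.4% in KDSH sample 6, and 8.41 to 15.7% in the 21 kept libraries. The share that fitted more than 1 gene was 16.97%, 17.2% and 9.40% in these samples and 6.57% in WTEE sample 10, and at most 5.60% in the other 20 libraries. The part of these shares in the levels was not tested.

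Single genes departed from the family in these samples. In WTSH sample 4, Rpl23a was 0.83 and Rpl35 0.74 below the mean of the kept WTSH libraries on the log2 scale, and both share most of their exons with other genes. Rpl24 was 0.91 above it there and 0.77 above in WTSH sample 7, and Rpl6l was 1.06 below it in WTSH sample 7, on the low counts given for both. In KDSH sample 6, Rpl23a was 0.61 above and Rpl24 0.40 below the mean of the kept KDSH libraries.

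The level of a gene was related to transcript length in a number of libraries, not all of which stood apart. Over 74 protein-coding genes of the family, the level in WTEE sample 10 was lower at a greater length of the principal transcript (Spearman's rho -0.51, across genes of 1 library, which are not independent). In the left-out samples rho was -0.39 (KDSH sample 6), 0.36 (WTSH sample 4) and 0.17 (WTSH sample 7). It ranged from -0.32 (KDEE sample 15) to 0.51 (WTSH sample 23) in the other 20 libraries, where WTSH sample 19 and KDEE sample 20 were both at 0.37. Other protein-coding genes showed the same order in WTEE sample 10. Their median was 0.77 for transcripts of up to 600 bases (168 genes), 0.52 for 1001 to 1500 bases (1411 genes) and -0.47 for those over 5000 bases. The ribosomal protein genes were at 0.96 (17 genes) in the shortest class and at 0.77 (17 genes) for 1001 to 1500 bases, above the other genes of like length in both, but the 2 of 2501 to 5000 bases were at 1.05, against -0.07 for the others of that class. In KDSH sample 6 the shortest class was at 0.33 for ribosomal protein genes and 0.16 for the others. The annotated length, such as 2989 bases for Rpl18, need not be that of the transcript expressed. The part of length in the level was not tested.

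**Figure D3:**
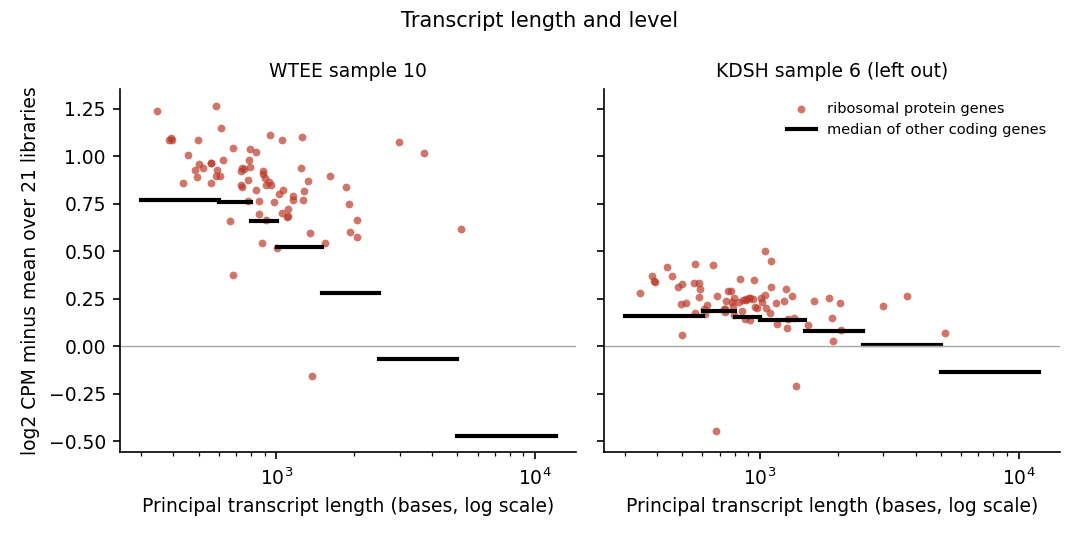
Level of 74 protein-coding ribosomal protein genes (points; vertical axis, log2 CPM minus the mean over 21 libraries) by principal transcript length (horizontal axis, bases, log scale) in WTEE sample 10 and in KDSH sample 6; black lines are medians of the other protein-coding genes in each length class. In WTEE sample 10 these medians run from 0.77 in the shortest class to -0.47 in the longest, and most points lie above the line of their class.

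Short transcripts were among those with the highest values in WTEE sample 10. Rpl41, which encodes the smallest ribosomal protein, was 1.27 above its mean on the log2 scale, Rps27 was 1.24 above and Rpl39, which lines the exit tunnel, 1.15 above. Rpl41 was at 469 CPM in WTEE sample 10 and between 175 and 206 CPM in the other 5 WTEE libraries. Rps6 stood 0.54 above its mean in that library, with 272 CPM.

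Other gene groups were high in WTEE sample 10 as well. The mean level there was 0.90 for ribosomal proteins with other names (Rplp0, Rplp1, Rplp2, Rpsa, Fau and Rack1), 0.83 for nuclear genes of oxidative phosphorylation, 0.56 for mitochondrial ribosomal proteins and 0.39 for other 5' TOP genes. Genes that control ribosomal protein synthesis, such as Mtor, Larp1 and Tsc2, were at -0.39. Markers of the choroid plexus, an epithelium next to the hippocampus, summed to 5226 CPM in it. They exceeded 1000 CPM in 5 libraries (WTSH sample 19, WTEE samples 10 and 13, KDEE samples 12 and 14) and lay between 26.6 and 118 CPM in the other 16. All 10 of these markers were among the genes tested, Ttr was at 4.69 CPM or more in every kept library, and the summed level ranged from 31.1 to 4373 CPM in WTSH, 46.5 to 5923 in WTEE, 26.6 to 107 in KDSH and 88.1 to 9686 in KDEE. Blood markers summed to 36.1 to 75.1 CPM in standard-housed and 54.8 to 383 CPM in enriched libraries. The part of these cells in the levels of the ribosomal protein genes was not tested. Hippocampal neuron markers summed to 2392 CPM in WTEE sample 10 and to 2426 to 2908 CPM in the other 20 libraries, with a mean level of -0.34 in it and of -0.19 to 0.26 in the others. Of the nuclear RNAs, Malat1 was at 2791 CPM in WTEE sample 10 and at 527 to 1418 CPM in the other 20, while Meg3 was at 1755 CPM in it and at 2428 to 5060 CPM in the others. The part of these in the level was not tested either. Rps6ka5 was at 13.5 CPM in WTEE sample 10 and at 20.5 to 24.5 CPM in the other 20, and a count per gene does not show whether its RNA carries the point mutation.

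Genotype in standard housing was compared first. No ribosomal protein gene was called between KDSH and WTSH, and 0% of all genes were, where a call is an adjusted p value under 0.05 with an absolute log2 fold change over 0.38 (edgeR's quasi-likelihood test, adjusted by Benjamini-Hochberg over all genes). At an unadjusted p value under 0.05 there were 0 genes higher and 0 lower, compared with 0.5% of all genes in the higher direction. The median log2 fold change was -0.08, with 72 of the 76 genes lower in KDSH, and the median standard error of a gene was 0.15. Over all genes the median was 0.00 and 49.9% were higher. The smallest p value was that of Rpl22, an RNA-binding protein of the large subunit, at -0.11 (SE 0.10, p value of edgeR 0.304, adjusted 0.99995). Groups overlapped in every one of the 76 genes, and of all genes 0.674% had groups that did not overlap in either direction. With the left-out samples returned, the median changed sign to 0.06.

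Rps6, the small-subunit protein that S6 kinases phosphorylate after synaptic activity, illustrates the size of these differences. It was at 177, 182, 193 and 169 CPM in the WTSH libraries and at 183, 170, 167, 175 and 163 CPM in the KDSH libraries. In WTEE it ranged from 174 to 272 CPM with a median of 191, and in KDEE from 175 to 214 CPM with a median of 190. The enriched groups reached higher than the standard-housed ones but all 4 overlapped. The log2 fold change was -0.07 (SE 0.10) for KDSH against WTSH, 0.15 (SE 0.09) for WTEE against WTSH and 0.17 (SE 0.09) for KDEE against KDSH, with p values of edgeR of 0.48, 0.118 and 0.0701 and adjusted p values of 0.99995, 0.651 and 0.454.

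Enrichment in WT mice came next. All 76 genes had a positive log2 fold change for WTEE against WTSH, with a median of 0.25 and a median standard error of 0.14, and 51.5% of all genes were positive. None was called, as was true of 0% of all genes. At an unadjusted p value under 0.05, 1 gene of the family was higher and 0 lower, compared with 3.95% of all genes higher. That gene was Rps27l (0.44, SE 0.20, p value of edgeR 0.0389, adjusted 0.651). Single libraries moved both values. Without WTEE sample 10 the median was 0.07 with 73 genes positive, and 0 genes of the family were at an unadjusted p value under 0.05 (2.12% of all genes higher). Without another WTEE library the median was 0.27 to 0.31. The count was 11 without sample 13 (4.44% of all genes), 25 without sample 17 (4.62%) and 29 without sample 16 (5.47%). It was 46 without sample 21 (6.49%) and 1 without sample 11 (4.11%). Without a WTSH library it was 0 for sample 2 (4.23% of all genes) and sample 23 (2.53%), 2 for sample 5 (2.4%) and 3 for sample 19 (5.02%). With the left-out samples returned, 66 were higher at that level (10.1% of all genes) and none was called.

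Enrichment in MSK1 KD mice did not involve WTEE sample 10 in the fold change. For KDEE against KDSH, 74 of 76 genes were positive, with a median of 0.20, and 0 were called (0% of all genes). Rps27l (0.46, SE 0.19, p value of edgeR 0.0225, adjusted 0.396) and Rps7, a protein of early small-subunit assembly (0.27, SE 0.13, p value of edgeR 0.0448, adjusted 0.423), were the 2 with an unadjusted p value under 0.05, compared with 5.64% of all genes higher. The spread shared by all groups did involve that library. Without it the median was still 0.20, but 67 genes had an unadjusted p value under 0.05 (11.8% of all genes), and the smallest adjusted p value was 0.0794, for Rpl34 (0.30, SE 0.07). Without any 1 of the other 20 libraries, 0 (KDEE sample 12, KDSH sample 24) to 8 genes (KDEE sample 20) were higher at that level. Of all genes, 3.02% were higher without KDEE sample 12, 4.07% without KDSH sample 24 and 7.58% without KDEE sample 20. With only KDSH and KDEE in the model, 64 genes were at an unadjusted p value under 0.05 (9.65% of all genes) and 0 at an adjusted one. Without the 5 libraries rich in choroid plexus markers, which include WTEE sample 10, the count was 47 (5.93% of all genes). Rps4l (-0.23, SE 0.15) and Rpl3l (-0.14, SE 0.30) had negative values and did not pass.

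The genotypes were also compared in enriched housing. For WTEE against KDEE, 73 of 76 genes were positive with a median of 0.14, and 0 were called (0% of all genes) or at an unadjusted p value under 0.05 (3.21% of all genes higher). Without WTEE sample 10 the sign turned, with a median of -0.06 and 73 genes lower. The smallest p value was that of Rps26, at the mRNA exit channel of the small subunit (0.23, SE 0.14, p value of edgeR 0.118, adjusted 0.957). Rpl41 had the highest value (0.25, SE 0.18).

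Whether the effect of enrichment differed between genotypes was tested by the interaction, the effect in WT minus that in MSK1 KD mice. Its median was 0.05, with 63 genes positive, 0 called (0% of all genes) and 0 at an unadjusted p value under 0.05 (2.29% of all genes higher). Without WTEE sample 10 the median was -0.14 and 73 genes were negative. Then 5 genes (Rpl13, Rpl15, Rpl22, Rps7 and Rps10) were negative at an unadjusted p value under 0.05, compared with 1.94% of all genes, and the smallest adjusted p value was 0.972. With all 21 libraries the smallest p value was that of Rps4l (0.33, SE 0.22, p value of edgeR 0.152, adjusted 0.99988).

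**Figure D4:**
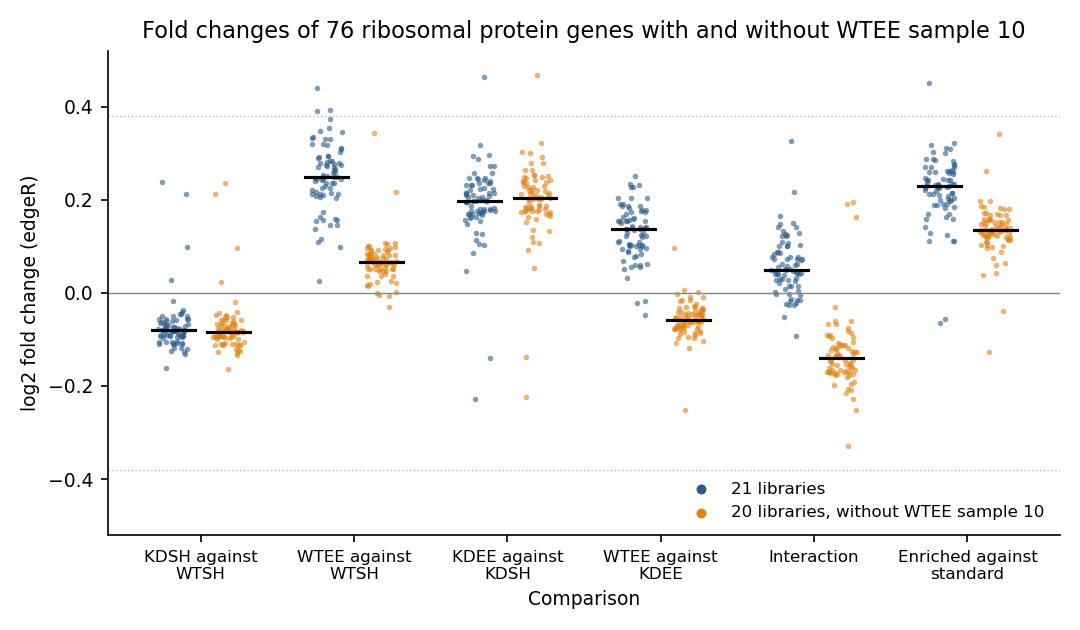
Log2 fold change (edgeR) of each of the 76 genes in 6 comparisons, with 21 libraries (blue) and without WTEE sample 10 (orange); black bars are medians and dotted lines mark 0.38 in either direction. Leaving out that library turns the median for WTEE against KDEE from 0.14 to -0.06 and that of the interaction from 0.05 to -0.14.

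Over both genotypes together, most ribosomal protein genes had a small positive fold change for enriched housing, without a call. These genes vary together over the same libraries, so the counts of genes below are not counts of independent results. The median log2 fold change was 0.23, 74 of 76 genes were positive (51.9% of all genes), and 62 were higher and 0 lower at an unadjusted p value under 0.05, compared with 9.77% of all genes higher. None passed the adjusted threshold: 1 of the 20187 genes tested (0.00495%) was called and it was not a ribosomal protein gene. The smallest adjusted p value in the family was 0.196, and with DESeq2 it was 0.0703 with 66 genes at an unadjusted p value under 0.05 (10.7% of all genes). The count of 62 was 65 without WTEE sample 10 (9.38% of all genes), with the median at 0.14. It was 40 without the 5 libraries rich in choroid plexus markers, WTEE sample 10 among them (6.98% of all genes), with the median at 0.12. Single libraries moved it as well, to 36 without WTSH sample 23 (7.38% of all genes). It was 40 without KDEE sample 15 (8.05%) and 41 without KDSH sample 24 (7.68%). In all of these the median stayed positive and no gene was called.

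The subunits did not stand apart from each other. In the large subunit the median was 0.23 with 36 of 45 genes at an unadjusted p value under 0.05, and in the small subunit it was 0.24 with 26 of 31.

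Rps27l had the largest difference in this comparison (0.45, SE 0.14, p value of edgeR 0.00348, adjusted 0.196). It was at 6.57, 7.57, 8.43 and 5.89 CPM in WTSH and at 6.55, 6.15, 6.11, 7.37 and 5.57 CPM in KDSH. WTEE ranged from 7.41 to 16.7 CPM with a median of 8.21, and KDEE from 6.87 to 12.4 CPM with a median of 8.36. Standard-housed and enriched mice overlapped, and the highest library of WTSH (sample 19), of WTEE (sample 10) and of KDEE (sample 12) was in each case one that was rich in choroid plexus markers, whose part in this was not tested. Without WTEE sample 10 its difference was 0.34 (SE 0.10, p value of edgeR 0.00219, adjusted 0.106).

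Its partner Rps27 was at 87.9, 94.9, 91.2 and 80.9 CPM in WTSH and at 84.0, 81.4, 81.1, 96.2 and 77.5 CPM in KDSH. WTEE ranged from 85.1 to 226 CPM with a median of 95.5, and KDEE from 83.2 to 116 CPM with a median of 99.1. These also overlapped, and the difference between enriched and standard housing was 0.32 (SE 0.13, p value of edgeR 0.027, adjusted 0.24).

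**Figure D5:**
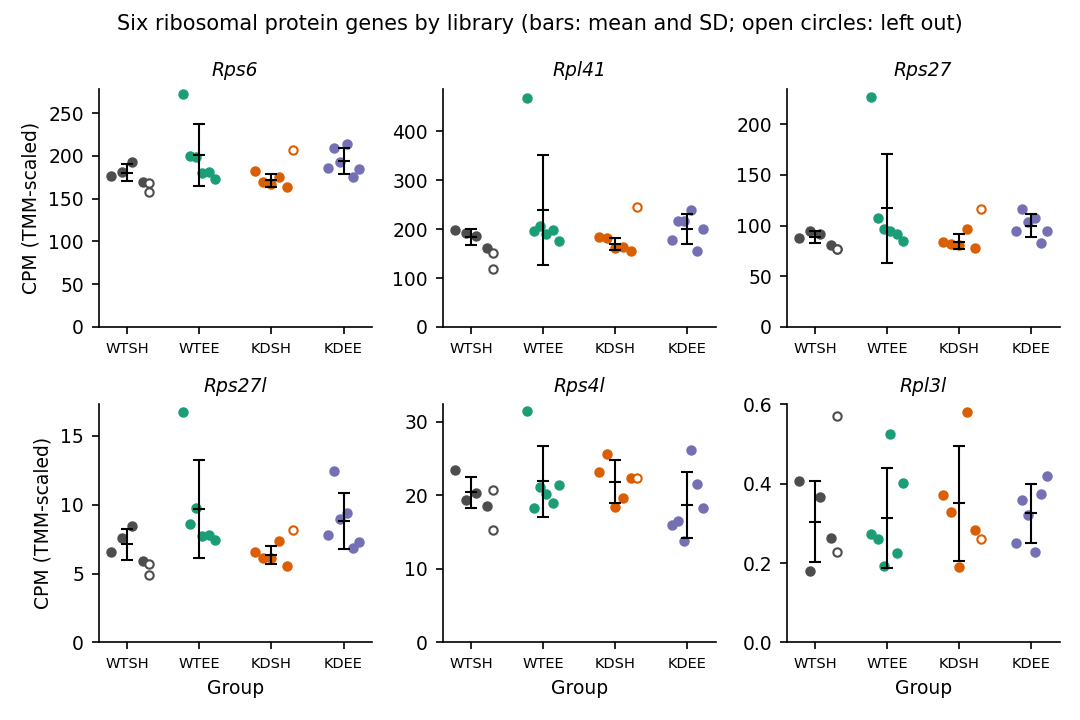
CPM (TMM-scaled) of Rps6, Rpl41, Rps27, Rps27l, Rps4l and Rpl3l in each library by group; points are libraries, bars the mean and SD of the kept libraries, open circles the samples left out. The highest WTEE point is sample 10 in each panel but that of Rpl3l, where sample 16 at 0.527 CPM is highest and sample 10 is at 0.273 CPM.

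Among other genes picked by role, the differences were of similar size. Rpl5 and Rpl11, which with 5S RNA bind Mdm2 when ribosome assembly is disturbed, were 0.18 (SE 0.07, p value of edgeR 0.0228) and 0.23 (SE 0.09, p value of edgeR 0.0209) higher in enriched mice, with adjusted p values of 0.235 and 0.232. Rps27a, made as a fusion with ubiquitin, was 0.31 higher (SE 0.12, p value of edgeR 0.0149, adjusted 0.227). It was at 136, 150, 161 and 128 CPM in WTSH and at 138, 136, 129, 149 and 121 CPM in KDSH. WTEE ranged from 134 to 317 CPM with a median of 154, and KDEE from 136 to 185 CPM with a median of 164, so the groups overlapped here too. Rps19, the gene most often mutated in Diamond-Blackfan anaemia, was 0.21 higher (SE 0.09, p value of edgeR 0.0226, adjusted 0.234), and Rpl38, which is needed for the translation of Hox mRNAs, 0.24 higher (SE 0.11, p value of edgeR 0.0454, adjusted 0.259).

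Rpl34 and Rps7 followed Rps27l in order of p value. Rpl34, a large-subunit protein, was at 98.9, 110, 102 and 90.4 CPM in WTSH and at 99.5, 87.9, 94.6, 96.6 and 86.1 CPM in KDSH. WTEE ranged from 94.2 to 212 CPM with a median of 107, and KDEE from 96.1 to 125 CPM with a median of 116. In both genotypes the lowest enriched mouse lay within the range of the standard-housed ones. The difference was 0.30 (SE 0.11, p value of edgeR 0.0104, adjusted 0.214), and that of Rps7 was 0.26 (SE 0.09, p value of edgeR 0.00994, adjusted 0.214).

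The paralogues that went the other way did not pass either. Rps4l, against 0.19 for its partner Rps4x, was at -0.07 (SE 0.11, p value of edgeR 0.558), and Rpl3l, against 0.13 for Rpl3, was at -0.06 (SE 0.22, p value of edgeR 0.801), with adjusted p values of 0.745 and 0.898.

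Lists of related genes were set beside the family in the comparison of housing over both genotypes, and no gene of any of them was called. Of all 20187 genes tested, 9.77% were higher and 1843 genes were lower at an unadjusted p value under 0.05. Of the 6 tested ribosomal proteins with other names, 5 (Rplp0, Rplp1, Rpsa, Fau and Rack1) were higher at an unadjusted p value under 0.05, with a median of 0.24, and Rplp0 of the ribosomal stalk was at 0.23 (SE 0.08, p value of edgeR 0.00587, adjusted 0.2). Of 4 ribosomal protein-like genes 2 were higher (median 0.22). Of 52 tested ribosomal protein pseudogenes, from 264 in the files, 10 were higher and 3 lower (median 0.28). Nuclear genes of oxidative phosphorylation were close to the family, with 45 of 78 higher, 0 lower and a median of 0.21, and of 77 mitochondrial ribosomal proteins 24 were higher and 0 lower (median 0.11). Without WTEE sample 10 the medians of these were 0.12 and 0.07, with 54 and 28 higher, compared with 9.38% of all genes.

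Genes that share the 5' TOP motif without encoding ribosomal proteins were described in the same way. Of 14, 5 (Tpt1, Eef2, Eef1b2, Eif3e and Npm1) were higher and 0 lower at an unadjusted p value under 0.05, compared with 9.77% of all genes higher. Their median was 0.11, whose difference from that of the family was not tested, and Tpt1 was at 0.30 (SE 0.09, p value of edgeR 0.00205, adjusted 0.186). Of 27 genes of ribosome assembly, Nhp2 was higher and Polr1b and Rrn3, which serve transcription of ribosomal DNA, were lower (median 0.00). Of 11 genes that control ribosomal protein synthesis, 0 were higher and Rps6kb2 was lower (-0.15, SE 0.06, p value of edgeR 0.0189, adjusted 0.231). At an unadjusted p value under 0.05, 9.77% of all genes were higher and 1843 of the 20187 genes tested were lower. The counts in these lists of 27 and 11 genes were near or under those shares.

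Markers of other cells were described in this comparison too, and none of them was called. The shares over all genes were again 9.77% higher and 1843 of 20187 lower, to which counts in such short lists should be held. At an unadjusted p value under 0.05, 8 of 10 choroid plexus markers (median 2.51), 5 of 5 blood markers (median 1.46) and 2 of 6 glial markers, Gfap and Mbp, were higher, and 1 of 6 hippocampal neuron markers, Fibcd1, was lower. Of 5 nuclear RNAs, 3 (Meg3, Miat and Snhg11) were lower. Of 3 pituitary markers and of 6 models that take up structural RNA, 0 were at that level in either direction. The part of these markers in the differences of the ribosomal protein genes was not tested.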

How the data were processed

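Poly(A) RNA of 24 hippocampi, each of 1 mouse, had been prepared with the TruSeq v2 kit and sequenced in pairs. Per the labels and the paper, the authors used FastQC 0.11.3 to check the reads, Skewer for trimming, STAR 2.5 for alignment to GRCm38 and HTSeq 0.6.1p1 for counting. The deposited values are raw counts per gene symbol, from unique alignments and without regard to strand, and reads that fitted more than 1 gene were not assigned to any. Reads without a feature, reads that fitted several genes and the other summary lines at the end of the files were left out of library sizes and tests. Sequencing lanes are not in the labels used here. Depth was 27410239 to 71907130 counts on genes in the 21 libraries used, and 15800187, 23318036 and 39585901 in WTSH samples 4 and 7 and KDSH sample 6. PCR copies are counted along with the molecules they came from.

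Counts were normalized by TMM and tested with the quasi-likelihood F-test of edgeR 4.0.16 in R 4.3.3, with the 4 groups in 1 model, after edgeR's standard filter for low counts. Calls needed an adjusted p value (Benjamini-Hochberg, over all 20187 genes) under 0.05 together with a log2 fold change beyond 0.38 in either direction. The study used these thresholds with another test, the Wald test of DESeq2. It reported differentially expressed genes for WTEE against WTSH, KDEE against KDSH and WTEE against KDEE, and none for KDSH against WTSH. The shares of all genes called here are therefore not those of the study. CPM and log2 levels (prior count 2) used TMM factors over all 24 libraries, while the tests used factors over the 21 libraries. Lengths and overlaps came from GENCODE M21, which may differ from the annotation that the authors counted with. Each length is that of the transcript APPRIS ranks first, or of the longest where several rank equally. Promoter windows came from RefSeq (GRCm38.p6). Alternatives were DESeq2 1.42.0, other scalings and filters, all 24 libraries, only the groups compared, a robust fit and each library left out in turn. The code was tested on simulated data. Tables and figures were made with Python 3.11.15, pandas 2.3.3 and matplotlib 3.10.9.

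The genes and lists were chosen with earlier results of these data known. Named are paralogues and other genes picked by role, and for each comparison the 3 genes with the smallest p value and the 2 with the largest value in each direction. The 3 highest and lowest per length, the 3 with the largest SD and the 2 farthest on each side in each left-out sample are named as well, along with members of the lists. In the list of ribosomal proteins with other names, 1 gene is not reported here. Rpl13, Rpl30, Rps10, Rps18, Rps25 and Rpl27a fall outside this rule and were named after their values or sequences were seen. Mouse numbers do not recur between groups, so no pairing was used.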

Additional observations from a re-analysis of the deposited data

Results flagged for a closer look

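Groups of 4 to 6 kept libraries were searched for a sample far from the others (Dixon's test at the 95% level). This was done for the mean level of the family and the 34 named genes in 4 groups. Of 140 groups, 33 had such a sample, and 30 of the 33 were WTEE sample 10. Chance gives about 1 in 20 for independent values, which does not apply to this count, since the genes vary together over the same libraries and many were named for extreme values. These are values, and no cause was tested.

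The mean level of the family in WTEE sample 10 was 0.85 on the log2 scale, far above the other 5 WTEE libraries. In the large subunit, WTEE sample 10 was far above them with CPM of 356 for Rpl10, 300.2 for Rpl11, 17.2 for Rpl13a, 186 for Rpl15, 145 for Rpl22, 54.1 for Rpl23a, 205 for Rpl28, 795 for Rpl3, 212 for Rpl34, 49.5 for Rpl35, 194 for Rpl38, 165 for Rpl39, 469 for Rpl41 and 288 for Rpl5. In the small subunit it was so with CPM of 167 for Rps13, 429.9 for Rps14, 536 for Rps15, 223 for Rps19, 328 for Rps21, 173 for Rps26, 226 for Rps27, 317 for Rps27a, 16.7 for Rps27l, 436 for Rps29, 441 for Rps3, 31.5 for Rps4l, 371 for Rps4x, 272 for Rps6 and 339.7 for Rps7.

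WTSH sample 23 lay far below the other 3 WTSH libraries, with a mean level of -0.21 and with 233 CPM of Rps15. In WTEE sample 16, Rpl10l was at 0.0351 CPM, from 2 counts, where the other 5 libraries had 0.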

How the results depend on the processing

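No ribosomal protein gene was called or had an adjusted p value under 0.05 in any of the 6 comparisons under any of the 31 or 32 alternatives run for each, where the smallest adjusted p value was 0.0690 (housing over both genotypes, all 24 libraries but WTEE sample 10). The alternatives that leave out WTEE sample 10 from the 24 libraries, or the 5 libraries rich in choroid plexus markers, were chosen after seeing the data. WTEE sample 10 is also among those 5 libraries, so their omission cannot be told apart from its own.

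The median log2 fold change for KDSH against WTSH turned to 0.0596 with all 24 libraries and to 0.0595 with all 24 but WTEE sample 10, and that of Rps7 there to 0.0341 and 0.0339. For WTEE against KDEE, leaving out 1 library at a time gave medians from -0.0577 (without WTEE sample 10) to 0.192, and values of Rps21 from -0.00965 (without WTEE sample 10) to 0.294. With all 24 but WTEE sample 10 they were -0.057 and -0.00887. Without the choroid plexus libraries the median was -0.0395, with Rps4l at -0.0605. For the interaction, leaving out 1 library at a time gave medians from -0.141 (without WTEE sample 10) to 0.102, values of Rps13 from -0.0605 to 0.208 and of Rpl13a from -0.0309 to 0.185, the lowest again without WTEE sample 10. Without the choroid plexus libraries the median was -0.10, with Rps13 at -0.0519 and Rpl13a at -0.0639. The mean levels of WTSH samples 4 and 7 moved to -0.75 and -0.71 with library size alone. The cause of these changes was not tested.

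No paired analysis was possible because no mouse number occurs in more than 1 group.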
